A study of Mus musculus with 6 samples.

Results

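Long 5′ tRNA fragments that run up to or past the anticodon were examined in mouse heart after loss of ELAC2. They were taken as every deposited 5′ fragment sequence of 36 nt or more, which gave 124 of 554 5′ sequences and of 1336 tRNA fragment (tRF) sequences in all. ELAC2 is the endonuclease (RNase Z) by which precursor tRNAs lose their 3′ trailer. Hearts came from 3 control mice, titled L/L, whose Elac2 gene carries a loxP-flanked exon but no cre, and from 3 knockout mice, titled L/L, cre, in which cre is driven by a muscle creatine kinase promoter. All 6 were C57BL/6, the genotype label of the controls reads Elac2 +/+ and that of the knockouts Elac2 -/-, and the labels used here state no age. The promoter acts in muscle cells, and the RNA is of whole heart, so cells without cre contribute to every knockout library, and fewer cells of a type cannot be told apart from less RNA per cell. Each mouse gave 1 library from 4 technical replicates. The libraries were size-selected for 15 to 35 nt RNAs, so every sequence described here is longer than the selected range. Elac2 mRNA was not analysed here, so the genotype was not checked.

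A mature tRNA folds into a cloverleaf whose anticodon sits in the middle of a 7-nt loop closed by a stem of 5 base pairs. Nucleases that cut in this loop under stress, of which angiogenin is the best known in mammals, leave a 5′ and a 3′ piece of the tRNA. Such a 5′ piece can end before, on or just past the anticodon, since the loop has bases on both sides of it, and the limit of 36 nt keeps only the longer ones. Here the anticodon was read from the sequence itself, and the end of each fragment is given as the number of nucleotides past the third anticodon base. An end at 0, 1 or 2 lies in the loop, an end at 3 to 7 lies in the 3′ arm of the anticodon stem, and a greater number lies past the stem.

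The most abundant long sequence of each of 10 groups is shown first, to show how far it reaches. A group is a tRNA or, where no anticodon was read, a set of sequences with a shared start. The anticodon is in capitals, and sequences with no capitals are those in which no hairpin could be read.
tRF_5_435 (glycine GCC, 36 nt): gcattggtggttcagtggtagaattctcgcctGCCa
tRF_5_450 (valine CAC, 36 nt): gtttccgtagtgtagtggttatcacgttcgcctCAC
tRF_5_438 (lysine CTT, 36 nt): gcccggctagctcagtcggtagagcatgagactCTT
tRF_5_500 (glutamate TTC, 39 nt): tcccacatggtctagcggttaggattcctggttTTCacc
tRF_5_433 (glycine CCC, 36 nt): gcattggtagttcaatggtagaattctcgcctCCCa
tRF_5_455 (aspartate GTC, 36 nt): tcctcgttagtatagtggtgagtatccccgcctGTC
tRF_5_437 (lysine TTT, 36 nt): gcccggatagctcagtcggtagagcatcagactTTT
tRF_5_441 (not read, 36 nt): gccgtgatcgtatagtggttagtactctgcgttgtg
tRF_5_458 (not read, 37 nt): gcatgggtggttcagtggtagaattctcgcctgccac
tRF_5_432 (serine GCT, 36 nt): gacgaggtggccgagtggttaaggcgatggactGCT
Most of them are 36 nt long, the shortest length in the set, so that they end on the third anticodon base or 1 nt past it according to where the anticodon lies. tRF_5_500 and tRF_5_503 are longer and end 3 nt past it.

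The libraries differed widely in depth. The controls held 235046, 773252 and 378924 tRF counts and the knockouts 55946, 45354 and 61712, of which 221913, 768139 and 372056 and 47430, 38336 and 54640 were 5′ counts. The scaling factors followed the same split, at 1.02, 0.215 and 0.400 in controls and 2.41, 2.56 and 1.85 in knockouts with edgeR's TMM method, so shares within a library, which need no scaling between libraries, are given for the members described most closely. The long members themselves were unequal. Of the 124, 77 were 36 to 39 nt long and held 99.8% of the long count, 65 had 5 counts or fewer over all 6 libraries, 39 had a single count, and 14 were counted in all 6 libraries. The longest was 96 nt.

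Few tRNAs supplied the long fragments. An anticodon was assigned to 94 members, which held 99.8% of the long count and covered 12 anticodons of 7 amino acids; 77 of them were read through a full stem and 17 through a partial one. Pooled over libraries, glutamate tRNA with the anticodon CTC gave 94.7% of the long count from 8 members. Glycine GCC gave 2.92% from 11 members, valine CAC 0.832% from 8, lysine CTT 0.688% from 14, glutamate TTC 0.307% from 13, glycine CCC 0.115% from 11, aspartate GTC 0.0940% from 9 and lysine TTT 0.0560% from 4. Serine GCT, valine TAC, glutamine CTG and glycine TCC made up the rest of the assigned members with 26 counts or fewer each. RefSeq's table for GRCm38.p6 lists 12 tRNA genes of the CTC kind, 14 of GCC, 11 of CAC, 24 of lysine CTT and 8 of glutamate TTC, so a fragment is assigned to a tRNA and not to a gene copy, and no position is given.

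The libraries differed in this supply. Glutamate held 48.4%, 96.8% and 92.4% of the long count in the controls and 78.1%, 78.7% and 81.6% in the knockouts. Control replicate 1 stood apart here, with glycine at 38.9% of its long count where the other control libraries had 2.04% and 4.55% and the knockouts had 8.81%, 7.13% and 5.50%. Valine held 1.56%, 0.533% and 1.36% in controls and 5.52%, 7.08% and 7.55% in knockouts, so that its 3 knockout values lay above all control values. With tRF_5_503 set aside, the share of valine CAC was 2.26%, 11.4% and 14.0% against 22.3%, 30.5% and 35.1%, and that of glycine GCC was 57.9%, 43% and 46.3% against 23.3%, 20.8% and 17.6%. Both differences kept the groups apart, which was common among the main tRNAs. In the same shares all knockouts were also lower for glutamate CTC and TTC, and higher for glycine CCC and lysine CTT and TTT. Aspartate GTC overlapped. These are shares of 1 total, so a high share of one tRNA lowers the others.

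Ends at 39 nt stood out in the glutamate tRNAs. Glutamate CTC fragments ended 3 nt past the anticodon, at 39 nt and on the first base of the 3′ arm of the stem, in 98.5% of their count; by library this was 75.7%, 98.7% and 98.1% in controls and 97.4%, 98.1% and 97.9% in knockouts. The step to either side was steep, since the 40-nt sequence tRF_5_516 had 6, 152 and 20 counts in controls and 4, 4 and 1 in knockouts where the 39-nt sequence had 1207, 224323 and 37731 and 2952, 3057 and 505. Glutamate TTC had 33.7% of its long count at 36 nt, on the last anticodon base, and 55.2% at 3 nt past it, the position that glutamate CTC used. In the other tRNAs most long counts were at 36 nt, the shortest length admitted, so the place of that end is set by the length limit. At 36 nt were 95% of the long count of glycine GCC and 83.8% of glycine CCC, which is 1 nt past their anticodon, and 86.8% of lysine CTT, 96.3% of lysine TTT, 63.9% of valine CAC and 74.3% of aspartate GTC, which is on its last base. Valine CAC had a further 27.4% at 37 nt and aspartate GTC 16.2% at 39 nt. By library valine CAC had 72.7%, 53.2% and 65.0% at 36 nt in controls and 85.7%, 87.5% and 84.8% in knockouts. At 37 nt it had 27.3%, 34.4% and 27.4% against 11.9%, 10.4% and 13.0%. The share at 36 nt was also higher in every knockout for lysine CTT and, on few counts, aspartate GTC. It overlapped for glycine GCC, glycine CCC and lysine TTT. Shorter starts of these tRNAs were more abundant in most cases: the 31-nt tRF_5_284 of glycine GCC had 117289 counts in control replicate 1, where the 36-nt tRF_5_435 had 1391, and the 35-nt tRF_5_416 of lysine CTT had 1065 there, where tRF_5_438 had 250.

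**Figure D1:**
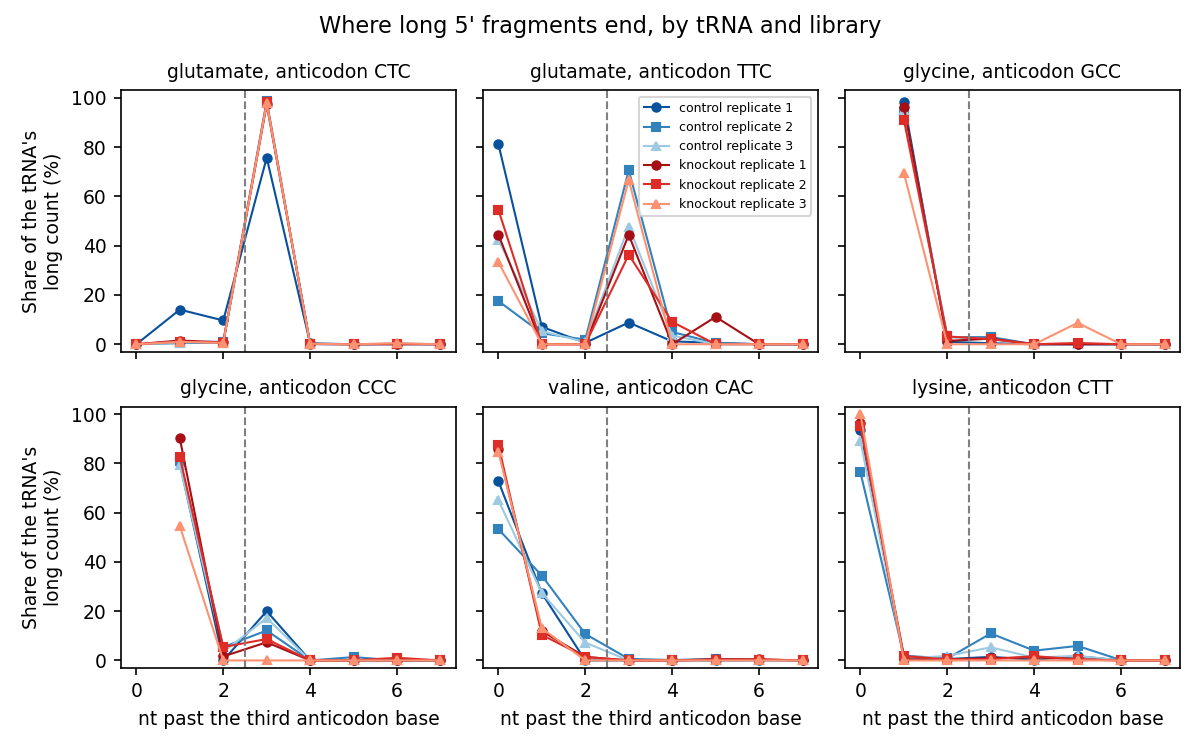
Share of each tRNA's long count (%, vertical axis) by the distance of the fragment's end from the third anticodon base (nt, horizontal axis) for 6 tRNAs, 1 line per library; the dashed line parts the loop (0 to 2) from the stem. Each line starts at the 36-nt length limit, where the glycine, valine and lysine panels are highest, while glutamate CTC peaks at 3 and glutamate TTC is high at both 0 and 3.

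Summed over tRNAs, 93.9% of the assigned long count ended in the 3′ arm of the stem, 6.04% in the loop and 0.0153% past the stem, from 37, 34 and 23 members. This split was set by a single sequence. Without tRF_5_503, 93.0% of the count ended in the loop and 6.77% in the 3′ arm. The share ending in the loop was 65.0%, 4.05% and 8.98% in controls and 22.5%, 21.7% and 17.2% in knockouts (26 ± 33.9 against 20.4 ± 2.87, SD, n = 3 each; exact two-sided permutation test, p = 1.0). With 3 mice against 3 such a test cannot go below 0.10. Without control replicate 1 the difference changed sign, to 13.9 percentage points higher in knockouts. Without tRF_5_503 the loop share was 97.7%, 90.7% and 95.5% against 95.1%, 95.3% and 83.8%, which overlap.

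The length profile placed the long fragments against the 5′ sequences inside the selected range. The most common 5′ length was 31 nt, with 53.6%, 50.7% and 58.1% of 5′ counts in controls and 63.2%, 57.2% and 70.3% in knockouts. Just inside and just outside the length limit the profile was continuous: 35-nt sequences had 3064, 4823 and 3068 counts in controls and 1196, 1177 and 180 in knockouts, and 36-nt sequences had 1946, 6058 and 2766 against 780, 759 and 95. As a share of 5′ counts, 36-nt sequences made up 0.877%, 0.789% and 0.743% in controls and 1.64%, 1.98% and 0.174% in knockouts. Knockout replicate 3 was therefore below all controls and the other 2 knockouts were above them. The same library was low at 35 nt, with 0.329% against 2.52% and 3.07% in the other knockouts, but not at 33 nt, with 2.48% against 3.61% and 3.22%. At 33 nt the 3 knockouts lay above the controls, which had 0.721%, 0.443% and 0.631% (p = 0.10 by the exact permutation test, the smallest it allows). Most other lengths inside the selected range also kept the groups apart. Knockouts were all higher at 15 to 24, 30, 32 and 34 nt and all lower at 27 and 28 nt. The groups overlapped at 25, 26, 29, 31 and 35 nt. At 37 and 38 nt no library exceeded 0.273%. At 39 nt the shares reached 0.553%, 29.3% and 10.2% in controls and 6.26%, 8.01% and 0.928% in knockouts, and tRF_5_503 made up nearly all of that count. Above 39 nt, 47 members shared 28, 295 and 45 counts in controls and 24, 25 and 19 in knockouts. How far the size selection acted on each length was not tested.

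**Figure D2:**
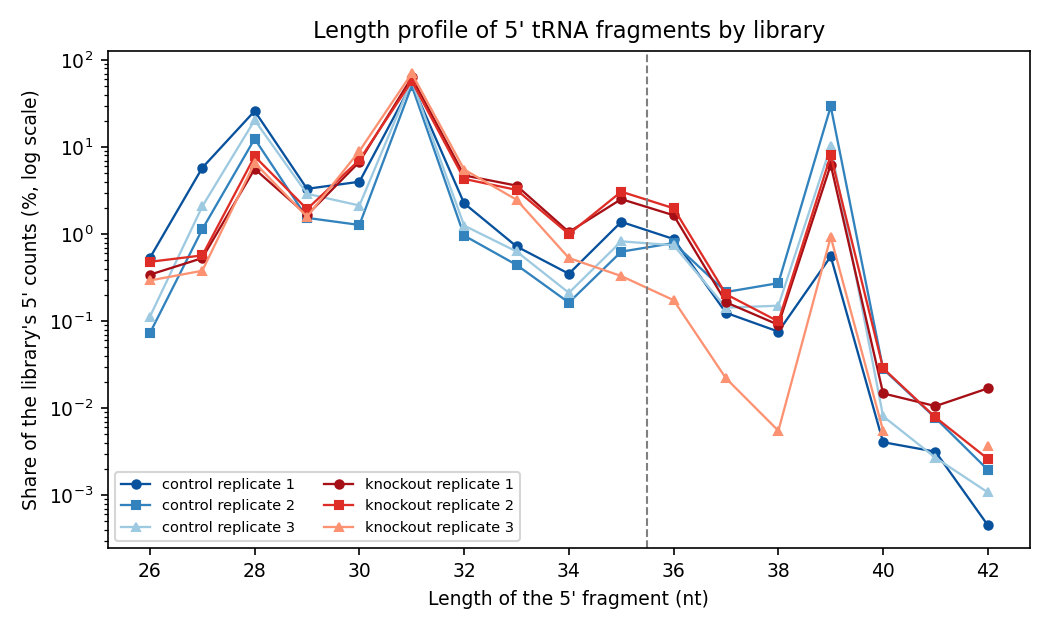
Share of each library's 5′ counts (%, log scale) at each fragment length from 26 to 42 nt, 1 line per library; the dashed line marks the limit between 35 and 36 nt, and lengths with no count are not drawn. The separate peak at 39 nt reaches 29.3% in control replicate 2 and 0.553% in control replicate 1, and knockout replicate 3 lies below the other 5 libraries from 35 to 38 nt.

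Long fragments made up 1.64%, 30.6% and 11.2% of 5′ counts in the controls and 8.21%, 10.4% and 1.164% in the knockouts. The groups overlapped, since control replicate 1 and knockout replicate 3 were both low and control replicate 2 was high. The means were 14.5 ± 14.8% and 6.58 ± 4.81% (SD, n = 3 each), a difference that did not exceed the spread between mice (exact two-sided permutation test, p = 0.40). Counting error was far smaller than this spread: the 95% Wilson interval was 30.5% to 30.7% for control replicate 2 and 1.08% to 1.26% for knockout replicate 3. Without control replicate 2 the difference changed sign, to 0.14 percentage points higher in knockouts.

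Most of that spread belonged to tRF_5_503, which held 33.1%, 95.3% and 90.3% of the long count in controls and 75.8%, 77.0% and 79.4% in knockouts. Without it, the long share was 1.11%, 2.02% and 1.21% in controls and 2.12%, 2.59% and 0.242% in knockouts (1.44 ± 0.499% against 1.65 ± 1.24%, SD, n = 3 each; exact permutation test, p = 0.80). Knockout replicates 1 and 2 were then the highest of the 6 libraries and knockout replicate 3 the lowest. The summed raw count of long fragments was 3646, 235289 and 41775 against 3895, 3971 and 636 (exact permutation test, p = 0.30); the total of all 5′ counts, 9.70-fold higher in controls on average, moves with it.

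**Figure D3:**
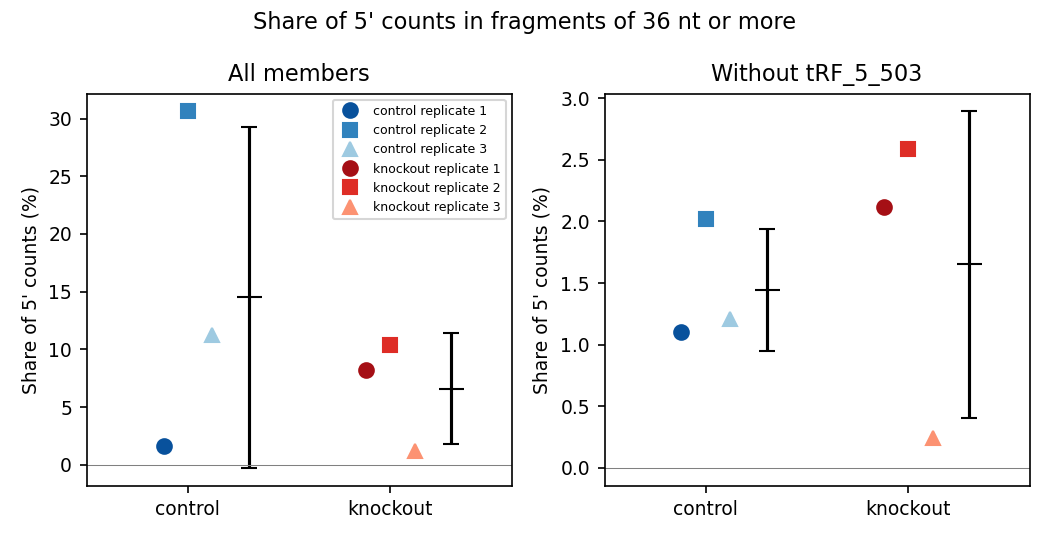
Long 5′ fragments as a share of each library's 5′ counts (%), for all 124 members on the left and without tRF_5_503 on the right; symbols are single mice and bars are mean ± SD (n = 3). The groups overlap in both panels and the highest library is at 30.6% on the left and at 2.59% on the right.

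Single sequences were compared by edgeR's quasi-likelihood test fitted to all tRF sequences, with p-values adjusted over the 254 that had enough counts. Of the long members 18 were among these 254, and they held 99.5% of the long count; the other 106 had too few counts to be tested. Under TMM scaling 12 of the 18 fell in the knockout, where 16.9% of all tested sequences did, and 1 rose, where 15.7% of all did. Their median log2 fold change was -3.78, against 0.06 over all tested sequences. Such a fall was not particular to the long members. Among 5′ fragments of 27 to 29 nt 20 of 26 were called lower under TMM, with a median of -3.22. The medians were 1.43 at 26 nt or less, -0.49 at 30 to 32 nt and -0.25 at 33 to 35 nt. The call depended on the scaling. With library totals alone no member fell and 1 rose (2.76% and 40.9% of all tested sequences), 18 of the 124 being tested again. The median of the members was then -0.80 and that of all tested sequences 2.15, so relative to all tested sequences the members stood at -3.84 under TMM and at -2.95 under totals. This difference was -3.04, -1.77 and -1.95 without control replicates 1, 2 and 3, over the 11 members that passed the filter there. It was -4.14, -4.30 and -3.33 without knockout replicates 1, 2 and 3, over 22, 22 and 25 members. It was -1.34 with no filter and -0.76 with DESeq2, both over all 124 members. With totals alone edgeR placed 1 member lower and 3 higher at an unadjusted p under 0.05, a threshold at which the share over all sequences was not taken. At an adjusted p under 0.05 limma-voom called 5 of 18 lower (12.6% of all tested sequences) and DESeq2 22 of 47 (11.5% of 532). The edgeR count also depended on single libraries. It was 6, 4 and 4 of 11 tested members without control replicates 1, 2 and 3. Of all tested sequences 19.9%, 12.3% and 12.8% were lower there. Only 5 of the 12 called members passed the filter in those fits, and 5, 4 and 4 of these kept the call. Without knockout replicate 3 the count was 7 of 25, where 9.86% of all tested sequences were lower. Of the 12 members 4 kept the call without knockout replicate 3. The authors' deposited table likewise has 22 of 47 members at an adjusted p below 0.05 with a negative log2 fold change (11.5% of all sequences with an adjusted p) and 1 with a positive one (5.45%).

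**Figure D4:**
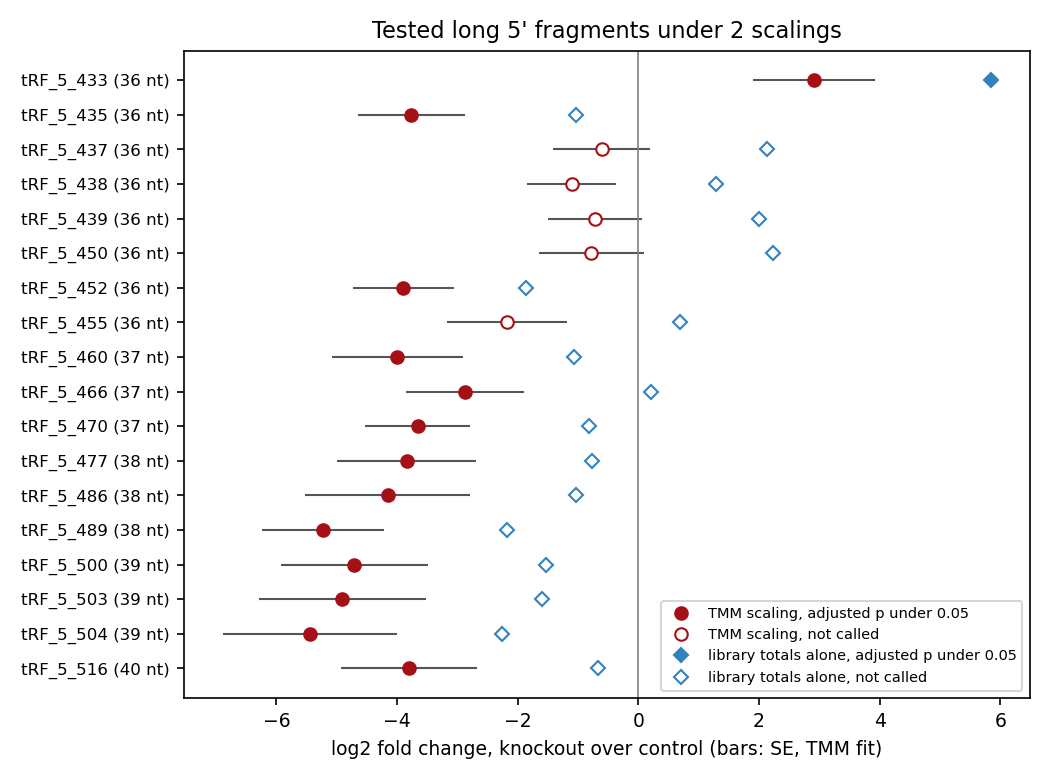
Log2 fold change, knockout over control, of the 18 tested long 5′ fragments in edgeR fits with TMM scaling (circles, bars are SE) and with library totals alone (diamonds, no error drawn); filled symbols have an adjusted p under 0.05. Of the circles 12 are filled on the left of 0 and 1, tRF_5_433, on the right, and tRF_5_433 is also the only filled diamond.

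The ordering of the libraries was nearly the same in all of these members. In TMM-scaled counts (CPM), knockout replicate 3 was the lowest knockout in 18 of 18, control replicate 2 the highest control in 17 and control replicate 1 the lowest control in 17. In that measure 5 of the 18 had all knockouts below all controls, where 18.5% of all tested sequences did, and 0 had all knockouts above, where 25.2% did. As a share of 5′ counts 4 of the 18 kept the groups apart in either direction, where 59.7% of the tested 5′ sequences did: tRF_5_435 and tRF_5_489 were lower in all knockouts, tRF_5_433 and tRF_5_437 were higher, and the groups overlapped in the other 14.

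Glutamate CTC gave 4 tested members, of 37 to 40 nt. The 39-nt tRF_5_503 was 0.544%, 29.2% and 10.1% of 5′ counts in controls and 6.22%, 7.97% and 0.924% in knockouts. Its groups overlapped: control replicate 1 was below every knockout, and control replicate 2 was above all. The fit gave a log2 fold change of -4.90 ± 1.39 (SE; adjusted p = 0.012 by edgeR), which became 0.091 without knockout replicate 3, 0.192 with limma-voom and 0.141 with the replicate block. The 38-nt tRF_5_489, which stops on the last base of the loop, had 154, 1754 and 455 counts in controls and 23, 20 and 3 in knockouts. Its share of 5′ counts, 0.0694%, 0.228% and 0.122% against 0.0485%, 0.0522% and 0.00549%, was lower in every knockout than in any control, and it fell by 5.23 ± 1.01 on the log2 scale (adjusted p = 0.0014 by edgeR). The 37-nt tRF_5_470 had 224, 1000 and 270 counts against 46, 34 and 5 and fell by 3.66 ± 0.87 (adjusted p = 0.0039 by edgeR), while its share of 5′ counts overlapped, at 0.101%, 0.130% and 0.0726% against 0.0970%, 0.0887% and 0.00915%. Both were called without any 1 of the 6 libraries, though not with library totals alone. The ratio of 39-nt to 38-nt counts was 7.84, 128 and 82.9 in controls and 128, 153 and 168 in knockouts. Control replicate 1 thus differed from the other 5 libraries in where this tRNA's fragments ended. In the amount of tRF_5_503 it was not alone, since knockout replicate 3 was also low, at 0.924% of 5′ counts against 0.544%.

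No 5′ sequence of 35 nt or less, of 430, is an exact start of tRF_5_503. The 13 shorter sequences that share its first 15 nt had 848 counts in all and differ from it further on. Whether exact shorter starts of tRF_5_503 were left out of the authors' set of sequences or were not detected cannot be told here. Shorter pieces of the same tRNA were thus not analysed. The share of this family's 5′ counts in long fragments, 92.9%, 99.9% and 99.3% in controls and 98.6%, 99.0% and 90.7% in knockouts, is bound by that limit. The related tRF_5_504, of the same length and family, had 1, 311 and 52 counts in controls and 5, 1 and 0 in knockouts, which is 0.0829%, 0.139% and 0.138% of those of tRF_5_503 in controls and 0.169%, 0.0327% and 0% in knockouts. Its origin was not tested.

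Glutamate TTC comes from 2 near-identical families that differ by C6T (positions are counted from 1 at the 5′ end, with the base of the more abundant sequence first). Its 36-nt tRF_5_452 had 95, 70 and 31 counts in controls and 3, 4 and 1 in knockouts and fell by 3.90 ± 0.84 (adjusted p = 0.0026 by edgeR), and its 39-nt tRF_5_500 had 7, 232 and 26 counts against 2, 4 and 1 and fell by 4.71 ± 1.21 (adjusted p = 0.0068), a call lost without knockout replicate 3 (0.0628) and with limma-voom (0.103). As a share of 5′ counts tRF_5_452 overlapped, at 0.0428%, 0.00911% and 0.00833% in controls and 0.00633%, 0.0104% and 0.00183% in knockouts. In the sister family the 39-nt tRF_5_501 had 8, 179 and 28 counts against 2, 0 and 1, and the 36-nt tRF_5_453 had 43, 32 and 17 against 1, 2 and 0; neither had enough counts to be tested. Control replicate 1 thus had the most counts of the 36-nt end and the fewest of the 39-nt end among controls, in both families. Within the library, 81.2% of its long glutamate TTC count ended on the last anticodon base, against 17.5% in control replicate 2 and 42.5% in control replicate 3.

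Glycine GCC is the tRNA with the most 5′ counts of all, and only a small part of them was long. The 36-nt tRF_5_435 had 1391, 4443 and 1778 counts in controls and 212, 173 and 16 in knockouts. This was 0.627%, 0.578% and 0.478% of 5′ counts against 0.447%, 0.451% and 0.0293%, lower in each knockout than in each control, and it fell by 3.76 ± 0.89 on the log2 scale (adjusted p = 0.0038 by edgeR). Set against its own most abundant shorter start, the 31-nt tRF_5_284, it was 1.19%, 1.158% and 0.837% in controls and 0.758%, 0.838% and 0.0432% in knockouts, where the groups touch. The 37-nt tRF_5_460 and the 38-nt tRF_5_477 had 0 counts in knockout replicate 3 and at most 6 in the other knockouts, and both were called, with log2 fold changes of -4.0 ± 1.09 and -3.84 ± 1.15 (adjusted p = 0.0094 and 0.017 by edgeR). Without knockout replicate 3 neither was called (0.0637 and 0.103), and tRF_5_477 was also not called with limma-voom (0.110) or the replicate block (0.0606).

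Glycine CCC gave the single member that rose. tRF_5_433 differs from tRF_5_435 by G9A, G15A and G33C, the last of which changes the anticodon, and both end 1 nt past it. It had 2, 23 and 9 counts in controls and 110, 75 and 6 in knockouts, although the control libraries are deeper. As a share of 5′ counts it was 0.000901%, 0.00299% and 0.00242% against 0.232%, 0.196% and 0.0110%, higher in every knockout than in any control. The fit gave 2.91 ± 1.01 (adjusted p = 0.035 by edgeR), and 5.85 with library totals alone (adjusted p = 0.0040). It passed the count filter only through the knockouts, since every control count, scaled by library total, lay below the filter's minimum. Its place among the tested members thus depends on the group in which it was high. It no longer passed when control replicate 3 (adjusted p = 0.128 by edgeR), knockout replicate 1 (0.0832) or knockout replicate 2 (0.0555) was left out. Its 35-nt start tRF_5_409 moved with it, with 9, 20 and 17 counts against 241, 167 and 22, and the ratio of the 36-nt to the 35-nt count overlapped between groups, at 22.2%, 115% and 52.9% against 45.6%, 44.9% and 27.3%. The near copy tRF_5_434, which differs from tRF_5_433 by A9G, had 1, 29 and 12 counts in controls and 0, 1 and 0 in knockouts.

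Valine CAC gave 3 tested members. The 36-nt tRF_5_450 had 40, 665 and 368 counts in controls and 180, 244 and 39 in knockouts and did not pass the test (log2 fold change -0.78, adjusted p = 0.55 by edgeR; 2.23 with library totals alone, adjusted p = 0.070). The 37-nt tRF_5_466, with 15, 430 and 155 counts against 25, 29 and 6, fell by 2.88 ± 0.98 under TMM (adjusted p = 0.032 by edgeR) and stood at 0.22 with totals. It was called in 2 of 6 fits that left out a library, with adjusted p of 0.0714 to 0.175 in the other 4, and its log2 fold change was -1.71 without control replicate 2. The 38-nt tRF_5_486, with 0, 134 and 41 counts against 3, 4 and 0, fell by 4.15 ± 1.37 (adjusted p = 0.028 by edgeR). That call was lost with DESeq2 (0.218), limma-voom (0.489) and the replicate block (0.127), and without knockout replicate 1 (0.0589) or 3 (0.153). As a share of 5′ counts tRF_5_450 was 0.0180%, 0.0866% and 0.0989% in controls and 0.380%, 0.636% and 0.0714% in knockouts.

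Lysine and aspartate members did not pass the test in either direction in the main fit. For lysine CTT, tRF_5_438 had 250, 309 and 228 counts in controls and 114, 124 and 11 in knockouts (-1.11, adjusted p = 0.30), and tRF_5_439, which differs from it by A29G, had 75, 248 and 157 against 106, 94 and 11 (-0.72, adjusted p = 0.54). For lysine TTT, tRF_5_437 had 11, 52 and 43 counts against 17, 26 and 7 (-0.61, adjusted p = 0.62). Its share of 5′ counts, 0.00496%, 0.00677% and 0.0116% against 0.0358%, 0.0678% and 0.0128%, was higher in every knockout than in any control, the opposite direction to its TMM-scaled value. For aspartate GTC, tRF_5_455 had 4, 77 and 73 counts against 16, 8 and 2 (-2.17, adjusted p = 0.11). It was called lower without control replicate 1 (adjusted p = 0.00088 by edgeR) and with no filter (0.022), and in no other setting. These 4 lysine and aspartate members and tRF_5_450 had positive log2 fold changes with library totals alone, from 0.69 to 2.23. Of the untested members, tRF_5_441 had 17, 45 and 22 counts against 7, 1 and 0, tRF_5_458 had 6, 34 and 26 against 1, 0 and 0, and the 39-nt lysine tRF_5_495 had 5, 45 and 16 against 2, 0 and 0.

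Whether a tRNA's 5′ fragments became longer or shorter was compared within families that share their first 15 nt, which needs no scaling between libraries. In 15 of the 17 families with at least 10 counts of 5′ fragments in every library the mean long share was lower in knockouts. These include 3 families with 3 long counts or fewer in all, where a knockout library at 0 carries little information; of the 11 with at least 50 long counts 10 were lower. Only 2 of the 17 kept the groups apart (11.8%), and the lowest adjusted p was 0.77 by the exact permutation test, whose design allows no raw p under 0.10. The 2 were the glutamate TTC family of tRF_5_501, with 2.56%, 6.91% and 1.59% in controls and 1.29%, 0.820% and 0.379% in knockouts, and the family of tRF_5_441, with 1.67%, 0.426% and 0.351% against 0.186%, 0.0330% and 0%. Without control replicate 1 the number apart was 9, and without knockout replicate 2 it was 4. In the glycine GCC family the long share was 0.688%, 0.934% and 0.615% against 0.655%, 0.729% and 0.0509%. In valine CAC it was 2.12%, 18.7% and 11.9% against 9.80%, 13.3% and 1.41%, and in lysine CTT 10.8%, 17.8% and 12.9% against 11.4%, 13.7% and 2.53%. In aspartate GTC it was 8.21%, 55.2% and 46.3% against 19.1%, 16.4% and 10%. Control replicate 1 had the lowest control share in 12 of the 17 families and control replicate 2 the highest in 12, and knockout replicate 3 had the lowest knockout share in 10. The cause of this ordering was not tested.

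**Figure D5:**
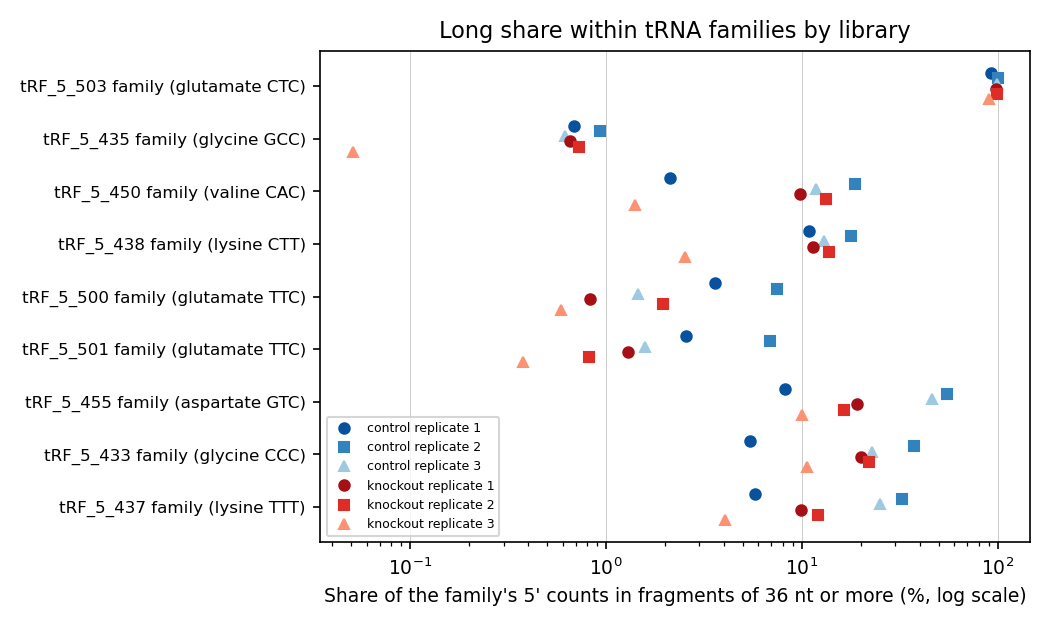
Share of each tRNA family's 5′ counts that is in fragments of 36 nt or more (%, log scale), for the 9 families with the most long counts, 1 symbol per library; families are named by their most abundant long member. The glutamate CTC family lies at 90.7% or more in all libraries, the glycine GCC family at 0.934% or less, and knockout replicate 3 is the lowest of the 3 knockouts in each of the 9.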

How the data were processed

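Small RNA from 6 mouse hearts was sequenced on an Illumina NextSeq sequencer after size selection for 15 to 35 nt, per the labels' protocols. The submitters' processing notes name build mm10 and the tools cutadapt 1.1.4, Bowtie2 2.2.9 and DESeq2 1.16.1; mapping rules, the origin of the tRF set and the joining of the 4 technical replicates: not given in the sources used here. The authors deposited raw counts per sequence, 1 column per mouse per the file headers, and a table with log2 fold changes and adjusted p-values; the authors' normalized values were not used. The members, lists and tests were chosen with earlier results of these data known.

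Counts of all 1336 sequences were tested with edgeR 4.0.16 (R 4.3.3): TMM scaling, filterByExpr (minimum count 10), quasi-likelihood F-test with group as the only term, Benjamini-Hochberg adjustment at 0.05. Shares and sums were compared by exact two-sided permutation over 20 assignments (SciPy 1.17.1). Library totals are sums of tRF counts, from 45354 to 773252; a count of 0 allows 3 counts, 0.000388% to 0.00661% of a library. Intervals cover counting error only, since the reads carry no molecular identifiers that the sources name. The p-values measure the spread between these 6 mice. The anticodon was read from a 5-bp stem (Watson-Crick or G-U) around a 7-nt loop with T at its position 2, in the member or in a longer sequence that extends it; where the stem was cut short, at least 3 pairs with all available ones formed were required, a step added after the data were seen. Requiring 4 of 5 pairs read 84 members and gave 0 different anticodons. Named members are all that passed the filter and the 5 next by count. On simulated data with a dispersion of 0.363 the edgeR step, run on 280 sequences, found 28 of 29 log2 changes of size 4, 20 of 37 of size 2, and 3 false calls among 214. That simulation used a single dispersion and the same starting composition in every library. Between replicates the tested members had a pooled SD of 2.29 in log2 CPM, so these figures need not hold for them. Alternatives were other scalings and filters, DESeq2 1.42.0, limma-voom (limma 3.58.1), a replicate block, leaving out each library, other length limits and denominators, and the set without tRF_5_503. Sequences were credited to the deposited tables, gene numbers and positions to RefSeq (GRCm38.p6). The sequences of some members are not reported here. A genome sequence was not used here. Close tRNA copies share reads, so their split depends on the authors' counting.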

Additional observations from a re-analysis of the deposited data

How the results depend on the processing

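The 12 members called lower were all called with size factors of DESeq2 and with upper-quartile scaling. Of all tested sequences 16.9% and 14.2% were lower in these fits. With at least 10 counts in 3 libraries 9 of 15 were called, where 21.1% of all tested sequences were lower, and 7 of the 12 were tested and called. The number was 0 with library totals alone (2.76% of all tested sequences), 25 of 124 with no filter (5.54%) and 22 of 47 with DESeq2 (11.5%). It was 5 of 18 with limma-voom (12.6%) and 1 of 1 at 40 nt or more (16.9%). Leaving out 1 library gave 4 to 15, from 11 to 25 tested members, where 9.86% to 19.9% of all tested sequences were lower. The 1 member called higher became 0 with limma-voom and at 40 nt or more, 2 at 35 nt or more, and 0 to 1 when 1 library was left out. The replicate block gave 6 lower, where 12.2% of all tested sequences were, and 0 higher. Same-numbered libraries deviated with correlations of -0.0054, 0.289 and 0.0452. Only number 2 matched its own number best, so the numbers were not taken as pairs. The members' median was -0.80 with library totals alone, -1.09 with DESeq2 and -4.10 to -1.71 with 1 library left out. With library totals alone 6 members changed sign, namely tRF_5_437 (2.13), tRF_5_438 (1.28), tRF_5_439 (2.0), tRF_5_450 (2.23), tRF_5_455 (0.69) and tRF_5_466 (0.22). The difference in long share, -7.92 percentage points, was 0.029 at 40 nt or more and 0.207 without tRF_5_503, and -14.4 to 0.143 with 1 library left out, the last without control replicate 2. The families with a lower mean share were 7 of 13 at 40 nt or more and 12 to 16 of 17 with 1 library left out; those with groups apart were 1 and 2 to 9. The loop share differed by -16.6 to 13.9 points with 1 library left out. The cause was not tested in any of these, beyond the fewer members that pass a filter or length limit. Depth limits the knockouts most, since 1 count there is a larger share.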

Other observations

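A small group of much longer 5′ fragments was seen past the anticodon arm; it was picked after its values were seen and is given as a description. Between 43 and 51 nt there were 8 members with 9 counts in all, while from 52 to 58 nt there were 14 with 33 counts, of which 7 members with 23 counts ended in GGGT. The most used end in this range lay 17 nt past the anticodon, with 24 counts in 8 members from glycine, aspartate, glutamine and valine tRNAs. Members of 52 nt or more had 7, 4 and 0 counts in controls and 4, 7 and 14 in knockouts. Per 100000 tRF counts this is 2.98, 0.517 and 0 in controls and 7.15, 15.4 and 22.7 in knockouts, so all 3 knockout libraries lay above all controls although knockout replicate 3 was the lowest library for fragments of 36 to 38 nt. Pooled, the rate was 0.793 (95% exact interval 0.396 to 1.42, counting error only) against 15.3 (9.93 to 22.6). These rates are scaled by library totals alone, and the raw counts overlapped between groups. Under that scaling most sequences shifted upward in knockouts. Of the 254 in the edgeR fit, 40.9% were called higher and 2.76% lower, around a midpoint of 2.15 in log2. Whether fragments of 52 nt or more rose beyond this general shift was not tested.

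The longest 2 members, tRF_5_553 (94 nt) and tRF_5_554 (96 nt), hold a whole valine tRNA with the anticodon TAC up to nt 73 and then a 3′ trailer of 21 and 23 nt that ends in a run of 4 and 6 T, as precursors ended by RNA polymerase III do. The trailer is shown in capitals because it is the part that RNase Z removes.
tRF_5_553: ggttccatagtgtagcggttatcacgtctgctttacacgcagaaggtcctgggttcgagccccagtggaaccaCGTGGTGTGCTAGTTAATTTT
RefSeq (GRCm38.p6) lists 3 genes of this kind, n-TVtac1 at chr19:12011931-12012003, n-TVtac2 at chr19:12012266-12012338 and n-TVtac3 on chromosome X; the table gives no sequence, so the copy was not identified here. Each knockout library held 1 count of these 2 sequences and each control 0, where a count of 0 over all controls allows 0.216 per 100000; 3 counts carry no test. Trailer fragments with the sequence of the same precursor were far more common. Those starting at nt 75 had 394, 290 and 758 counts in controls and 804, 881 and 893 in knockouts, which is 0.168%, 0.0375% and 0.200% of tRF counts against 1.44%, 1.94% and 1.45%. Those starting at nt 74, the first base past the tRNA, had 20, 20 and 39 counts against 36, 36 and 47. How the starts at nt 75 arose was not tested. The shares given for nt 75 rest on library totals alone. With totals the tested trailers of all tRNAs had a median log2 fold change of 2.37, against 0.29 under TMM scaling.

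The ratio of 36-nt to 33-nt 5′ counts, computed after the length profile was seen, was 1.22, 1.78 and 1.18 in controls and 0.456, 0.615 and 0.0701 in knockouts. The 2 groups do not overlap in it, and knockout replicate 3 is again the lowest. The same holds for the ratio of 35-nt to 33-nt counts, both lengths inside the selected range. It was 1.91, 1.42 and 1.31 in controls and 0.699, 0.954 and 0.133 in knockouts. As shares of 5′ counts the groups overlapped at 36 and 35 nt and lay apart at 33 nt, so the separation is not particular to the long members.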
